A study of Mus musculus with 27 samples.

Results

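The comparison described here set untreated mouse embryonic fibroblasts of a line labelled R against untreated fibroblasts without PKBalpha. Both lines carry the PKBa -/- genotype, and the labels describe R as the knockout in which PKBalpha was reconstituted. By its labels the pair addresses what changes in knockout cells when PKBalpha is put back. The arrays do not settle whether it was, as the Akt1 probe sets described below show. The arrays were chosen by their titles, which gave 3 arrays of R and 3 of the knockout, 6 of the 27 arrays of the series. Genes were taken as measurable where the geometric mean intensity of at least 1 of the 2 groups lay above a background level of 48.3, which left 11073 of 18193 genes. The nearest genes on either side of that level were 4933402C06Rik, at 48.31 in R, and Naip6, at 48.3 in R.

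Both groups were female cells at passage 45, grown in medium with serum and not irradiated. The other arrays came from wild-type fibroblasts and from all 3 lines irradiated with 10 Gy and collected 4 h or 24 h later. They entered the model of the spread between arrays, and their levels are given where named. Each genotype was represented by 1 line, and no label names the construct, promoter or clone behind R. The 3 arrays of a group were biological replicates per the labels, so the errors cover repeat samples of 1 line and say nothing of how separate lines of that genotype would differ. In bulk RNA of this kind, fewer cells of a type and less RNA per cell cannot be told apart.

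PKBalpha, also called Akt1, is a serine/threonine kinase that is recruited to the plasma membrane when growth factor receptors activate PI3 kinase. It phosphorylates FOXO transcription factors, the TSC complex and many other proteins, and through them acts on survival, growth and metabolism. Its closest relative in fibroblasts is PKBbeta, the product of Akt2. Embryonic fibroblasts make and remodel collagen-rich matrix, respond to serum through immediate early genes, and secrete acute phase proteins, chemokines and prostaglandins when NF-kappaB and C/EBP factors are active. Lines kept for many passages can differ from each other in any of these programmes.

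Values are array intensities, levels are geometric means of 3 arrays, and differences are log2 of R over knockout with the standard error of the model. Adjusted p values are from limma, with Benjamini-Hochberg adjustment over all 18193 genes, and a gene was called at an adjusted p below 0.05. Array medians of the 6 arrays ran from 54.4 to 71.4, and 10678 to 11167 genes per array lay above background. Replicate 2 of the knockout and replicate 1 of R stood apart by their Gapdh control probe sets, with log2 ratios of the 3' over the 5' set of -0.163 and 0.0029 against -0.465 to -0.378 on the other 4 arrays. Over the series 5 arrays stood apart in this way, and results without them are given beside the main ones. All 16 measured fibroblast markers were above background, against 6 of 16 blood cell, 1 of 12 endothelial, 4 of 21 epithelial and mesothelial, 5 of 15 skeletal and heart muscle, 4 of 14 neural and 2 of 11 pluripotency markers.

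Akt1, the targeted gene, is covered by 4 probe sets, and the label check rests on them. Its brightest set read 2.35, 52.7 and 24.9 on the knockout arrays and 41.9, 29.3 and 7.44 on the R arrays, against a wild-type level of 3533. The ranges overlapped, both group levels lay below background, and the difference was 0.52 ± 0.87 (adjusted p = 0.862). The next brightest set in wild-type cells (level 2128) read 1.42, 3.91 and 2.36 in the knockout and 53.2, 55.8 and 58.5 in R. There the lines did not overlap (adjusted p over all probe sets = 0.00418), yet R lay barely above the background of 48.3 and below the wider background level of 69.9 that more Y-linked genes give. The remaining 2 sets differed by 0.11 ± 0.28 and -0.66 ± 0.75. Neither of the 2 sets that were bright in wild-type cells read near that level in R, and the labels do not say whether the sequence put back carries the probed parts of the transcript. The cells are therefore called the line labelled R throughout. Akt2 read 768 in the knockout and 801 in R (0.06 ± 0.14, adjusted p = 0.905). Xist, the RNA that coats the inactive X chromosome, read 6983 and 7930 (0.18 ± 0.17, adjusted p = 0.696).

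Limma called 651 of the 11073 genes (5.88%), 373 higher in R (3.37%) and 278 lower (2.51%), and 303 of them differed by over 2-fold. R lay below background for 34 of the called genes and the knockout for 48. All 3 arrays of 1 line lay beyond all 3 of the other for 645 of the 651, against 22% of all measurable genes. The split between directions depended on the scaling: equal array medians, which lowered the median of all genes from 0.05 to -0.08, gave 220 higher and 418 lower, and quantile normalization 282 and 289. Without the 5 arrays that stand apart 635 genes were called (5.69%), 326 higher and 309 lower, and 413 were shared with the 651. The count also rested on single arrays and on the spread shared over the series: it was 326 and 330 without replicates 0 and 1 of the knockout, 401 and 332 without replicates 1 and 2 of R, and 11 when only the 6 compared arrays were fitted (2264 genes had an unadjusted p under 0.05 in the main model).

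**Figure D1:**
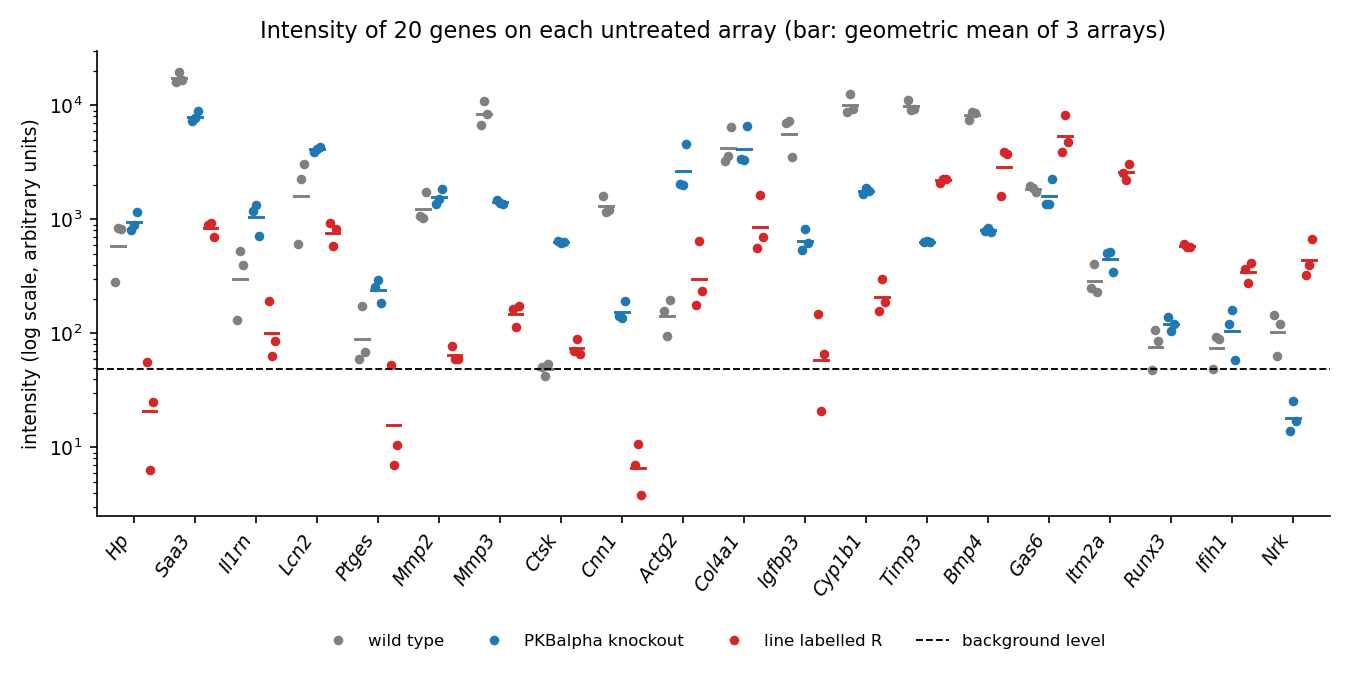
Intensity on a log axis of 20 called genes on each untreated array of the wild type, the PKBalpha knockout and the line labelled R, with bars at the geometric mean of 3 arrays and a dashed line at the background level of 48.3. The 3 R arrays lie below the 3 knockout arrays for the first 13 genes, from Hp to Cyp1b1, and above them for the last 7, from Timp3 to Nrk.

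Genes of the acute phase were lower in R. Saa3, which encodes serum amyloid A3, read 7254, 7821 and 8877 in the knockout and 902, 928 and 708 in R. The arrays of each line lay close together and far from the other line, a 9.47-fold difference (-3.24 ± 0.15, adjusted p = 4.47e-11), and the wild-type level was 17440. Hp, the gene of the haemoglobin-binding protein haptoglobin, read 811, 897 and 1153 in the knockout. On the R arrays it read 55.8, 6.28 and 25.2, so that 1 of 3 was above background, and R was at least 18.6-fold lower (adjusted p = 1.58e-05). Such bounds set the brighter group's level against the dimmer group's arrays, each raised to the background level where it lay below it. Lcn2, whose product lipocalin 2 binds bacterial siderophores, read 3864, 4138 and 4340 against 928, 580 and 823 (-2.43 ± 0.64, adjusted p = 0.0374). The copper carrier gene Cp fell from 2584 to 978 (-1.40 ± 0.39, adjusted p = 0.0498). Neither of the last 2 calls held without the 5 arrays that stand apart, and Lcn2 lost its call on leaving out any 1 of the 6 compared arrays and Cp on leaving out any but replicate 1 of R and with quantile normalization.

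Interleukin-1 and chemokine genes moved with them. Il1rn, which encodes the antagonist of the interleukin-1 receptor, read 1174, 1339 and 720 in the knockout and 193, 62.8 and 86.6 in R, a 10.2-fold difference without overlap (adjusted p = 5.38e-04). Il1a, the gene of the cytokine interleukin-1alpha, lay near background in the knockout (58, 37.9 and 73.4) and below it on all R arrays (adjusted p = 0.0275), so its fold is bounded only at 1.13. The chemokine gene Cxcl16 fell from 267 to 133 (-1.01 ± 0.21, adjusted p = 0.0083) and Ccl8 from 127 to 63.9 (-0.99 ± 0.25, adjusted p = 0.0309). Nfkbiz, an inducible regulator of NF-kappaB, fell from 1712 to 833 (-1.04 ± 0.20) and Tnfaip2, a gene induced by tumour necrosis factor, from 141 to 45.2, at least 2.71-fold, with 2 of 3 R arrays above background. Cebpd and Cebpb encode C/EBP factors that act on acute phase promoters. Cebpd read 2641, 2883 and 2814 in the knockout and 2416, 957 and 1127 in R (-1.01 ± 0.26, adjusted p = 0.0356), with replicate 0 of R close to the knockout. Cebpb read 5486 and 3362 (-0.71 ± 0.15, adjusted p = 0.00878).

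Of 44 measured chemokine, acute phase and NF-kappaB genes, 10 were called lower and none higher. The called share was 29.4% of those above background, against 5.88% of all genes. The median difference was -0.62 against 0.05 for all genes. The count was 5 lower without the 5 arrays that stand apart, where Lcn2, Cp, Ccl8 and Nfkbiz lost their calls and Il1a fell below background, and the median was -0.51. Cebpd also lost its call there and with the mean of its probe sets, of which 1 of 2 had the opposite sign. Il1a and Cebpd lost their calls on leaving out any of 5 single arrays, Ccl8 any of 4, and Cebpb replicate 1 of R. Tnfaip2 was the only called gene of the list in a chromosome stretch whose genes were shifted as a whole, described further on. Blood cells also make several of these products. The summed level of 16 blood cell markers ran from 883 to 1117 in the knockout and from 579 to 868 in R, and Cd14 was the only called gene among them, lower in R; the part of blood cell RNA in the result was not tested.

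Prostaglandin synthesis genes were lower as well. Ptges, which encodes the inducible prostaglandin E synthase, read 258, 291 and 185 in the knockout and 53.3, 6.93 and 10.5 in R, at least 4.81-fold lower with 1 of 3 arrays above background (adjusted p = 3.72e-04). Ptgs2, the gene of cyclooxygenase-2, which makes its substrate, read 2579, 2525 and 2424 against 1492, 321 and 421 (-2.10 ± 0.43, adjusted p = 0.00855). Replicate 0 of R again lay nearest the knockout. Ptger4, which encodes a receptor of prostaglandin E2, fell from 611 to 293 (-1.06 ± 0.21, adjusted p = 0.00599). These were 3 of 16 measured genes of the list, and none was called higher. They made up 42.9% of the 7 above background, against 5.88% of all genes. Ptgs2 lost its call without the 5 arrays, with the mean of its probe sets and without replicate 1 or 2 of R.

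Several secreted proteases of the matrix were lower in R and an inhibitor was higher. Mmp2, which encodes gelatinase A, read 1374, 1495 and 1838 in the knockout and 77.1, 59.1 and 59.3 in R. R was 24.1-fold lower without overlap (-4.59 ± 0.37, adjusted p = 8.69e-07). Its level, 64.7, was just above background and below the wider level of 69.9, so the fold is least certain on that side. Mmp3, the gene of stromelysin-1, read 1479, 1403 and 1371 against 164, 114 and 174 (-3.26 ± 0.31, adjusted p = 6.47e-06). Ctsk, which encodes the collagen-degrading protease cathepsin K, read 646, 622 and 637 against 70.3, 88.6 and 65.4 (-3.10 ± 0.26, adjusted p = 8.69e-07), and was near background in wild-type cells at 48.5. Mmp13, the gene of collagenase-3, lay below background in R and at 99 in the knockout, at least 2.05-fold lower (adjusted p = 0.00215). Timp3, an inhibitor of matrix proteases that binds to the matrix, read 634, 649 and 629 in the knockout and 2103, 2256 and 2249 in R (1.79 ± 0.20, adjusted p = 2.44e-05). Htra1, a secreted serine protease, rose from 2148 to 4134 (0.94 ± 0.17, adjusted p = 0.00379) but was not called without the 5 arrays that stand apart.

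These were the 6 called genes of 35 measured proteases and inhibitors, 20.7% of those above background against 5.88% of all genes. The median of the list was -0.15. Mmp2, Mmp3 and Ctsk were called under every alternative, the fit to the 6 compared arrays included. Mmp3 and Mmp13 are neighbours in a cluster of protease genes. Their proximal promoters are shown because each carries the letters TGANTCA, the motif of the AP-1 factors that serum and interleukin-1 activate, within 46 bases before the annotated start. The sequences are from RefSeq, build GRCm38.p6, both on the plus strand (chr9:7445751-7445807 for Mmp3 and chr9:7272454-7272510 for Mmp13), with the match in capitals.
Mmp3: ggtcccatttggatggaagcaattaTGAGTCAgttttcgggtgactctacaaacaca
Mmp13: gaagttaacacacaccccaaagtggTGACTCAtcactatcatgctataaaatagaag
The motif, searched on both strands of the 250 bases before the start, stood in 7.82% of 27025 genes with a window, in 6 of 25 list members and in 2 of 5 called ones. A match describes letters only, and no binding was measured.

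Basement membrane and pericellular matrix genes differed in both directions. Col4a1 and Col4a2, which encode the chains of type IV collagen, stand head to head, and their RefSeq promoter windows of 300 bases overlap by 78 bases. Col4a1 read 3358, 3336 and 6543 in the knockout and 556, 1625 and 698 in R (-2.29 ± 0.40, adjusted p = 0.00265). Col4a2 read 1428, 1513 and 2474 against 256, 655 and 353 (-2.17 ± 0.35, adjusted p = 0.00138). In each line the array that stands apart was the highest for both genes, the lines did not overlap, and both calls held without those arrays. The other 32 measured collagens were not called, among them Col3a1, which read 28830 and 25080. The called share of collagens above background was 9.09%, against 5.88% of all genes.

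Decorin (Dcn), a proteoglycan that binds collagen fibrils, read 4617, 5000 and 3753 in the knockout and 1785, 903 and 1088 in R (-1.87 ± 0.27, adjusted p = 5.03e-04). Genes of elastic fibres and microfibrils were lower, namely Fbln5 (5570 to 2505), Mfap5 (309 to 119) and Emilin2 (1303 to 561), with adjusted p values of 0.00998, 0.00331 and 0.0015. Osteoglycin (Ogn), a small leucine-rich proteoglycan, read 1401, 1776 and 1050 against 3683, 3693 and 6901 (1.72 ± 0.34, adjusted p = 0.00616). Ecm1 rose from 890 to 1661 (0.90 ± 0.23, adjusted p = 0.037). Of 54 measured matrix glycoproteins and proteoglycans, 2 were thus higher and 4 lower, with a median of -0.14. The called share was 14% of those above background, against 5.88% of all genes. Fap, which marks activated fibroblasts, rose from 227 to 605 (1.42 ± 0.21, adjusted p = 6.91e-04), and Thy1, a surface protein of fibroblasts, fell from 12080 to 6400 (-0.92 ± 0.24, adjusted p = 0.0384). Fbln5, which lies in a stretch of chromosome 12 that was lower as a whole, Mfap5 and Thy1 were not called in the refit with averaged probe sets, nor was Ecm1 with equal array medians. Thy1, Ecm1 and Fbln5 lost their calls on leaving out any of 5, any of 4 and 1 of the 6 single arrays.

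Contractile genes of the smooth muscle programme, which fibroblasts switch on as myofibroblasts, were lower. Cnn1, the gene of calponin 1, read 141, 135 and 193 in the knockout and 6.96, 10.7 and 3.82 in R, at least 3.19-fold lower (adjusted p = 3.94e-05), with a wild-type level of 1302. Actg2, an actin of smooth muscle, read 2034, 2008 and 4584 against 176, 652 and 233 (-3.15 ± 0.54, adjusted p = 0.00218). Here the wild-type level, 143, was below that of both other lines. Myl9, a regulatory myosin light chain, fell from 10380 to 4889 (-1.09 ± 0.29, adjusted p = 0.0402) and the collagen receptor subunit Itga1 from 413 to 139 (-1.57 ± 0.27, adjusted p = 0.00228). These were 4 of 24 measured genes, 18.2% of those above background against 5.88% of all genes, and none was higher. The median was -0.30, and 7 were called lower without the 5 arrays that stand apart. Myl9 lost its call with quantile normalization, in the refit with averaged probe sets and on leaving out any of 5 single arrays.

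Egfr and feedback genes of the ERK pathway were lower in R. Egfr, the receptor of epidermal growth factor, read 362, 329 and 384 in the knockout and 127, 164 and 138 in R (-1.33 ± 0.13, adjusted p = 8.09e-06). That call was lost with the mean of its probe sets. Dusp6, a phosphatase that inactivates ERK and is induced by it, read 328, 287 and 377 against 175, 86.3 and 89.3 (-1.57 ± 0.28, adjusted p = 0.00298). The feedback inhibitor gene Spry2 fell from 321 to 152 (-1.07 ± 0.25, adjusted p = 0.0196), and Junb, Ier2, Klf6 and Phlda1, which serum induces, differed by -0.76, -0.59, -0.66 and -0.88. Of 37 measured immediate early and ERK feedback genes, 6 were lower and none higher, 17.1% of those above background against 5.88% of all genes. A negative difference was found for 32 of the 37, and the median was -0.49. Without the 5 arrays 3 were called, and Dusp6 was the only gene of the 6 called in every alternative but the fit to 6 arrays. The other 5 were not called in the refit with averaged probe sets, and each lost its call on leaving out at least 4 of the single arrays in turn, and Spry2 lies in a stretch of chromosome 14 that was lower as a whole. Gas6, a ligand of the TAM receptor kinases, read 1363, 1373 and 2248 in the knockout and 3933, 8197 and 4754 in R (1.73 ± 0.28, adjusted p = 0.00124), and was not called with the mean of its probe sets. Gdnf, a neurotrophic factor, fell from 348 to 68.8 (-2.34 ± 0.40, adjusted p = 0.00217), and Nrg1, a ligand of ERBB receptors, rose from 60.5 to 181 (1.58 ± 0.36, adjusted p = 0.017), a call lost without replicate 0 or 1 of the knockout or replicate 2 of R. Fgfr2, a receptor of fibroblast growth factors, was higher too (795, 713 and 1092 against 1072, 1869 and 1927, adjusted p = 0.0455). Its lines overlapped, and the call was lost with the mean of its probe sets, without the 5 arrays and on leaving out any of 4 single ones. Of 53 measured growth factors and receptor kinases 3 were thus higher and 2 lower, 13.2% of those above background against 5.88% of all genes.

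In the PI3 kinase and PKB pathway 3 of 24 measured genes were called, 13.6% of those above background against 5.88% of all genes. Pik3r3, which encodes a regulatory subunit of PI3 kinase, read 577, 532 and 562 in the knockout and 1176, 1083 and 1025 in R (0.97 ± 0.14, adjusted p = 2.87e-04). Phlpp1, a phosphatase of PKB, fell from 881 to 606 (-0.54 ± 0.13, adjusted p = 0.022), and Trib1, a pseudokinase, from 292 to 139 (-1.07 ± 0.21, adjusted p = 0.00629). The other 21 were not called, and the median was 0.08. Among 23 FOXO factors and targets 3 were lower, Sod2 (8861 to 5739), Bnip3 (2518 to 1055) and Trib1. These were 14.3% of those above background, against 5.88% of all genes. Of the measured FOXO genes 10 had a positive and 13 a negative difference. The list's median was -0.37 in untreated cells, -0.15 at 4 h and 0.06 at 24 h. At each irradiated time 1 member was called. Sod2 and Bnip3 act in mitochondria, as a superoxide dismutase and in mitophagy. The FOXO target Fbxo32 read 1729 and 617 (-1.49 ± 0.43, adjusted p = 0.0637). Phlpp1 and Sod2 were not called without the 5 arrays that stand apart, nor on leaving out any of 4 single arrays, and Trib1 was not called with the mean of its probe sets.

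Of 18 measured genes of the mTOR complexes and TSC, 3 were higher and none lower. The called share was 16.7% of those above background, against 5.88% of all genes. Without the 5 arrays that stand apart 2 were called higher and 1 lower. On the irradiated arrays 1 member was called at 4 h and 3 at 24 h. Mlst8, a subunit of both mTOR complexes, read 369, 380 and 387 in the knockout and 756, 947 and 612 in R (1.00 ± 0.16, adjusted p = 9.56e-04). Rptor, the scaffold of mTOR complex 1, rose from 557 to 982 (0.82 ± 0.20, adjusted p = 0.0216) and Tsc2, an inhibitor of that complex, from 1123 to 1781 (0.67 ± 0.17, adjusted p = 0.0309). All 3 lay in stretches of chromosomes 11 and 17 whose genes were higher in R as a whole, described further on. Mlst8 and Rptor were not called when all probe sets were averaged, Rptor and Tsc2 each lost the call on leaving out any of 3 single arrays, and Tsc2 was not called with equal array medians or without the 5 arrays.

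Genes of cholesterol synthesis were lower in R. Fdft1, squalene synthase, read 5409, 5385 and 6634 in the knockout and 2757, 3482 and 2236 in R (-1.06 ± 0.20, adjusted p = 0.00396). Nsdhl, a sterol dehydrogenase, read 2668, 2650 and 2372 against 1577, 1112 and 1236 (-0.98 ± 0.21, adjusted p = 0.0107). Sqle, squalene epoxidase, fell from 5636 to 3770, Msmo1 from 5806 to 2916 and Hsd17b7 from 2199 to 1288, with adjusted p values of 0.00781, 0.0465 and 0.0247. These 5 of 20 measured genes were called lower and none higher, 25% of those above background against 5.88% of all genes. A negative difference was found for 19 of the 20, and the median was -0.50. Without the 5 arrays 3 genes were called and the median was -0.43, and Sqle and Hsd17b7 were not among them. Fdft1, which lies in the lowered stretch of chromosome 14, and Msmo1 were not called when probe sets were averaged. Of the 4 probe sets averaged for Fdft1, the 2 above background were each called lower. Hsd17b7 lost its call on leaving out any of 5 single arrays, Msmo1 any of 4 and Nsdhl 1. Of 18 fatty acid synthesis genes the desaturase genes Fads2 (3012 to 1557), Scd1 (4194 to 2684) and Scd2 (17000 to 12430) were lower. They made up 18.8% of those above background, against 5.88% of all genes. All 3 lie on chromosome 19, whose genes were lower in R as a whole. Scd1 and Scd2 lost their calls on leaving out 3 and 2 of the single arrays, and Fads2 on leaving out none.

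Of 21 measured genes listed as targets of the HIF factors of hypoxia, 4 were lower. These made up 21.1% of those above background, against 5.88% of all genes. They were Bnip3, Epas1 (629 to 275), Bhlhe40 (738 to 421) and Mxi1 (1063 to 669). Epas1 itself encodes a HIF subunit rather than a standard target. Glycolysis and glucose uptake had 2 of 22 genes lower, the phosphofructokinase gene Pfkp (783 to 492) and Pgam1 (11010 to 8326), and none higher. These were 9.52% of those above background, against the 5.88% of all genes. Epas1, Mxi1, which lies in a lowered stretch of chromosome 19, Pfkp and Pgam1 were not called in the refit with averaged probe sets, Pgam1 not without the 5 arrays, and Bhlhe40 and Pgam1 lost their calls on leaving out any of 3 and any of 4 single arrays.

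Interferon-stimulated genes were higher in R. These genes are switched on by the STAT and IRF factors that interferons activate. Ifih1, which encodes the sensor of double-stranded RNA called MDA5, read 122, 162 and 58.6 in the knockout and 366, 278 and 415 in R (1.73 ± 0.34, adjusted p = 0.00605). Gbp7, a guanylate-binding protein, read 148, 128 and 127 against 295, 361 and 471 (1.46 ± 0.36, adjusted p = 0.0251). Xaf1 read 340, 378 and 253 against 526, 714 and 961 (1.16 ± 0.29, adjusted p = 0.0268). In each case the lines did not overlap. Rsad2, whose product viperin inhibits viruses, lay below background in the knockout and at 44.8, 64.4 and 125 in R, at least 1.47-fold higher (adjusted p = 0.0259).

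Parp14, Lgals3bp, Ifi27 and Samd9l made up the 8 called genes of 49 measured, with differences of 0.99, 0.96, 0.68 and 0.59, and none was lower. The called share was 19.5% of those above background, against 5.88% of all genes. A positive difference was found for 38 of 49, and the median was 0.51 against 0.05 for all genes. With equal array medians 6 were higher and 1 lower (median 0.38), and without the 5 arrays that stand apart 6 were higher and none lower (median 0.64). Gbp7, Xaf1 and Parp14 lost their calls without those arrays, Rsad2 with quantile normalization and the mean of its probe sets, and Ifi27 and Samd9l with equal array medians. Xaf1, Parp14 and Samd9l were also not called in the refit with averaged probe sets. On leaving out single arrays the calls of Gbp7 and Parp14 were lost with any of 5, those of Xaf1 and Samd9l with any of 4, and those of Rsad2 and Ifi27 with any of 3. Ifih1 and Lgals3bp were called in every alternative but the fit to 6 arrays. Rsad2 and Lgals3bp lay in stretches of chromosomes 12 and 11 that were higher as a whole, and Ifi27 in one of chromosome 12 that was lower.

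Promoter sequences of 2 called members are shown because they carry the letters GAAANNGAAA, the core of the interferon-stimulated response element. They are from RefSeq, build GRCm38.p6, at chr3:142530258-142530317 on the plus strand for Gbp7 and chr12:26456538-26456597 on the minus strand for Rsad2. Capitals mark the match, which lies on the opposite strand in both.
Gbp7: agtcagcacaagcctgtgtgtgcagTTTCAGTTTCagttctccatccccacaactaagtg
Rsad2: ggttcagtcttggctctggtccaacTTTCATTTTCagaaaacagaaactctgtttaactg
The motif stood in 3.46% of the 27025 genes with a window, in 16 of 34 list members that have one and in 2 of 6 called ones. For the acute phase and NF-kappaB list the consensus of NF-kappaB stood in 4.46% of genes, in 9 of 33 members and in none of the 7 called members with a window, which says only that these letters are not in the 250 bases searched.

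**Figure D2:**
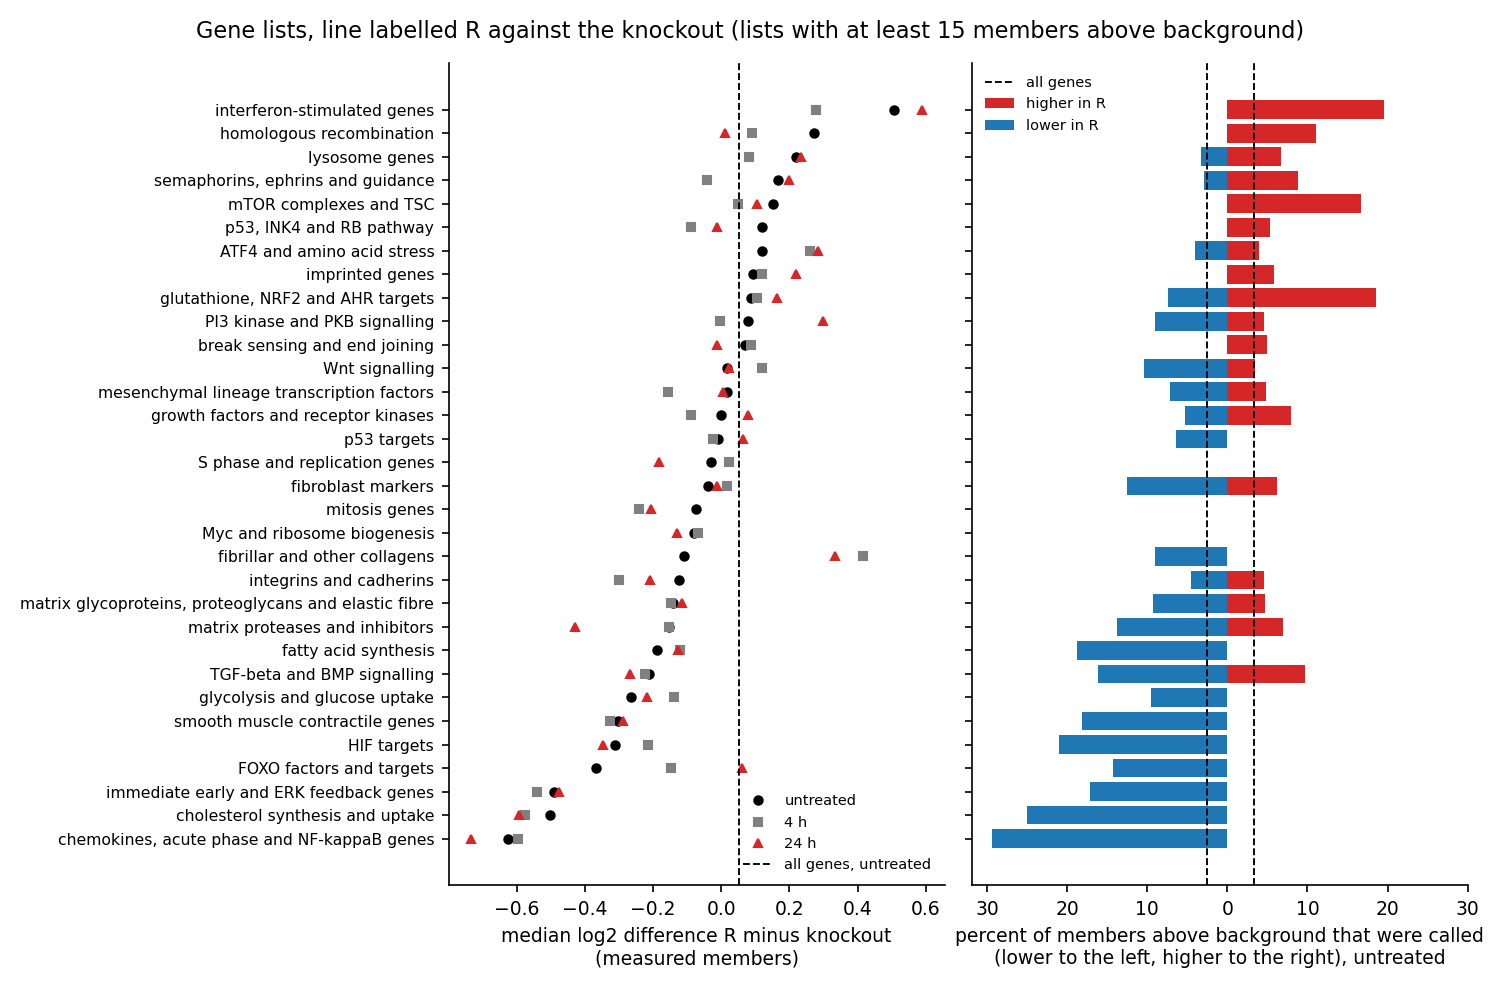
Gene lists with at least 15 members above background. On the left, the median log2 difference of R minus knockout over the measured members, untreated (circles), at 4 h (squares) and at 24 h (triangles), with the untreated median of all genes, 0.05, dashed; on the right, the percentage of members above background that were called higher or lower in untreated cells, with the values over all genes dashed. Chemokines and acute phase genes lie lowest at -0.62 and interferon-stimulated genes highest at 0.51.

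TGF-beta and BMP signalling genes differed in both directions, 3 higher and 5 lower of 41 measured, with a median of -0.21. The called share was 25.8% of those above background, against 5.88% of all genes. Bmp4, a ligand, read 790, 847 and 770 in the knockout and 1603, 3934 and 3734 in R (1.84 ± 0.29, adjusted p = 0.00108), and its wild-type level was 8193. Tgfb2, another ligand, rose from 489 to 1144 (1.22 ± 0.22, adjusted p = 0.00302) and the receptor gene Tgfbr2 from 3447 to 5605 (0.70 ± 0.16, adjusted p = 0.0142). Lower were the receptor gene Bmpr1b (252 to 79.5), the activin antagonist follistatin (Fst, 779 to 254), the procollagen protease gene Bmp1 (2106 to 1107), the TGF-beta-induced matrix protein gene Tgfbi (6735 to 3038) and the repressor gene Skil (2327 to 1409). Of these 8, Bmp4, Tgfb2 and Tgfbi were called in every alternative but the fit to 6 arrays. Fst was not called without the 5 arrays, nor Tgfbr2, Bmpr1b, Bmp1 and Skil when probe sets were averaged, and Fst, Bmp1, which lies in the lowered stretch of chromosome 14, and Skil lost their calls on leaving out any of 5 single arrays and Tgfbr2 any of 2.

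Among Wnt genes the R-spondin receptor gene Lgr5 lay below background in R and at 153 in the knockout, at least 3.17-fold lower (adjusted p = 0.00137). The secreted antagonists Sfrp1 (at least 3.27-fold, adjusted p = 0.022) and Sfrp2 (456 to 171, adjusted p = 0.0183) were lower as well. With Apcdd1, which was higher, these were the 4 called genes of 43, 13.8% of those above background against 5.88% of all genes. Lgr5 was not called with the mean of its probe sets and Sfrp1 and Apcdd1 not without the 5 arrays. Single arrays decided the calls of Apcdd1 (any of 6), Sfrp2 (any of 4) and Sfrp1 (any of 3). Igfbp3, the main carrier of insulin-like growth factors in serum, read 537, 829 and 623 in the knockout and 147, 20.8 and 65.9 in R, of which 2 of 3 were above background. R was at least 8.41-fold lower (adjusted p = 0.00116), and the wild-type level was 5662.

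Enzymes of glutathione conjugation were mostly higher. Gstm1 rose from 1551 to 2927 (0.92 ± 0.18, adjusted p = 0.00666), Gstm2 from 786 to 1232, Gstm5 from 3030 to 4605 and Gsta4 from 135 to 420 (1.64 ± 0.34, adjusted p = 0.00925). The Gstm genes are members of a family with related sequences, and how far their probe sets share signal was not tested. Gsto1 fell from 8271 to 4206 (-0.98 ± 0.15). Ahr, the aryl hydrocarbon receptor, rose from 76.4 to 165 (1.11 ± 0.22, adjusted p = 0.00728). Its target Cyp1b1, a cytochrome P450, read 1675, 1899 and 1774 in the knockout and 157, 300 and 187 in R (-3.10 ± 0.26, adjusted p = 8.69e-07). Receptor and target thus differed in opposite directions. In all 5 of 37 genes were higher and 2 lower, 25.9% of those above background against 5.88% of all genes. The list's median was 0.09, and -0.04 with equal array medians. Ahr was not called with the mean of its probe sets, and Gstm1 and Gstm2 not without the 5 arrays. Gstm2 lost its call on leaving out any of 4 single arrays and Gsta4 on leaving out replicate 2 of R. Ahr lies in the raised stretch of chromosome 12 and Gsto1 in a lowered one of chromosome 19.

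Transcription factors and genes outside the lists include the largest differences. Runx3, a Runt-family factor, read 140, 105 and 122 in the knockout and 609, 576 and 573 in R (2.27 ± 0.36, adjusted p = 0.00108), and was called under every alternative. Its relative Runx1 fell from 959 to 428 (-1.16 ± 0.32, adjusted p = 0.0426), a call lost without the 5 arrays and on leaving out any of 5 single ones. Shox2, a homeobox factor of the limb, rose from 1750 to 2917 and Tbx18, a T-box factor, fell from 1132 to 518 (adjusted p = 9.1e-05). Nrk, a kinase gene on the X chromosome, read 13.9, 25.5 and 17 in the knockout and 323, 396 and 674 in R, at least 9.14-fold higher (adjusted p = 6.46e-05). Itm2a, a membrane protein gene, read 506, 515 and 344 against 2575, 2212 and 3048 (2.53 ± 0.29, adjusted p = 3.65e-05). Scara5, a ferritin receptor, was at least 4.9-fold higher and the coactivator gene Ppargc1a at least 2.24-fold. Robo1, a receptor of the SLIT guidance proteins, rose from 106 to 321 (adjusted p = 0.00116). Robo1 and Shox2 were not called when probe sets were averaged, Ppargc1a was not called without the 5 arrays or any of 3 single ones, nor Shox2 without replicate 2 of R.

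On the other side Mapk13, which encodes p38delta, read 135, 168 and 157 in the knockout and 1.51, 6.02 and 10.6 in R, at least 3.16-fold lower (adjusted p = 0.00469). Crabp1, a retinoic acid-binding protein, was at least 3.83-fold lower (adjusted p = 0.0116), against 2030 in the wild type. Ctsc, the gene of cathepsin C, was at least 3.25-fold lower and the tendon gene Tnmd fell from 3454 to 1140, a call lost on leaving out any of 5 single arrays. Of the 140 called genes named under the rule, 50 passed in every alternative other than the fit to the 6 compared arrays, where 8 passed. On leaving out each of the 6 arrays in turn, 69 of the 140 lost the call at least once. In the refit with averaged probe sets 52 lost it, and 9 of these (among them Thy1, Myl9, Junb, Ier2, Phlda1, Pgam1, Samd9l and Tnmd) have 1 probe set, so that their own difference was the same there. The average takes in probe sets below background too. The order of genes known only by a bound cannot be read from these values.

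Cell cycle genes showed small differences. Of 44 measured S phase and replication genes, 44 mitosis genes and 33 Myc and ribosome biogenesis genes none was called by limma, with medians of -0.03, -0.07 and -0.08 and with 4, 6 and 3 genes at an unadjusted p under 0.05, and 33 of the mitosis genes had a negative difference. With equal array medians 1 S phase and 2 mitosis genes were called lower (medians -0.16 and -0.20), and members of the S phase list were called at 4 h (1) and 24 h (2), as were mitosis genes (2 and 1). Cyclin D1 (Ccnd1) was higher (1977 to 3383, 0.77 ± 0.18, adjusted p = 0.0168), but not with equal array medians, averaged probe sets or without any of 3 single arrays. Among 35 p53 targets the death receptor gene Fas (662 to 214) and the autophagy gene Dram1 (2931 to 1574) were lower, 6.45% of those above background, near the 5.88% of all genes, and Fas lies in a lowered stretch of chromosome 19. Cdkn1a, the gene of p21, read 235 and 115 (-1.03 ± 0.39, adjusted p = 0.174). Of 33 measured HOX genes 12 were above background, and none was called by limma in untreated cells (2 at an unadjusted p under 0.05). Their median was 0.13, or 0.00 with equal array medians. Without the arrays that stand apart 1 HOX gene was called higher. At 4 h none was called (median 0.14), and at 24 h 3 were (median 0.38).

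The irradiated samples measured the same lines again on separate arrays. At 4 h limma called 580 of 11013 genes between R and the knockout (5.27%) and at 24 h 916 of 11339 (8.08%). Of the 651 genes called in untreated cells, 645 had the same sign at 4 h and 380 were called again, which is 58.4% of the 651 and 65.3% of the 4 h calls. At 24 h 648 had the same sign and 471 were called again, 72.4% of the 651 and 51.4% of the 24 h calls. None was called in the opposite direction, and 329 were called at all 3 times, 176 higher and 153 lower. The contrasts at all times share the same spread estimate per gene, so being called again is not independent of the first call. Across the 11073 measurable genes the differences correlated at r = 0.78 with 4 h and 0.80 with 24 h, a description across genes, which are not independent.

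Saa3 differed by -3.67 at 4 h and -3.01 at 24 h, Cyp1b1 by -3.37 and -3.05, Itm2a by 2.48 and 2.27, and Bmp4 by 2.25 and 2.33. Other genes were again near or below background in 1 line: Hp read 212 and 709 in the knockout and below background in R at both times, Mmp2 read 842 and 1272 against 32.2 and 65.1, and Nrk read 330 and 533 in R and below background in the knockout. No measurable gene passed a test of the difference between the irradiated and the untreated contrast (0.0% at 4 h and 0.0% at 24 h). At an unadjusted p under 0.05 by limma there were 138 and 121 genes, fewer than that threshold gives by chance alone. The absence of calls therefore does not show that irradiation left the differences unchanged. Nkx2-3, called higher in untreated cells (at least 2.39-fold), differed by 0.83 and -0.99, and Zp3 by -2.30 and 0.46, both without a call. Their untreated calls were lost on leaving out any of 3 single arrays for Nkx2-3 and any of 5 for Zp3.

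**Figure D3:**
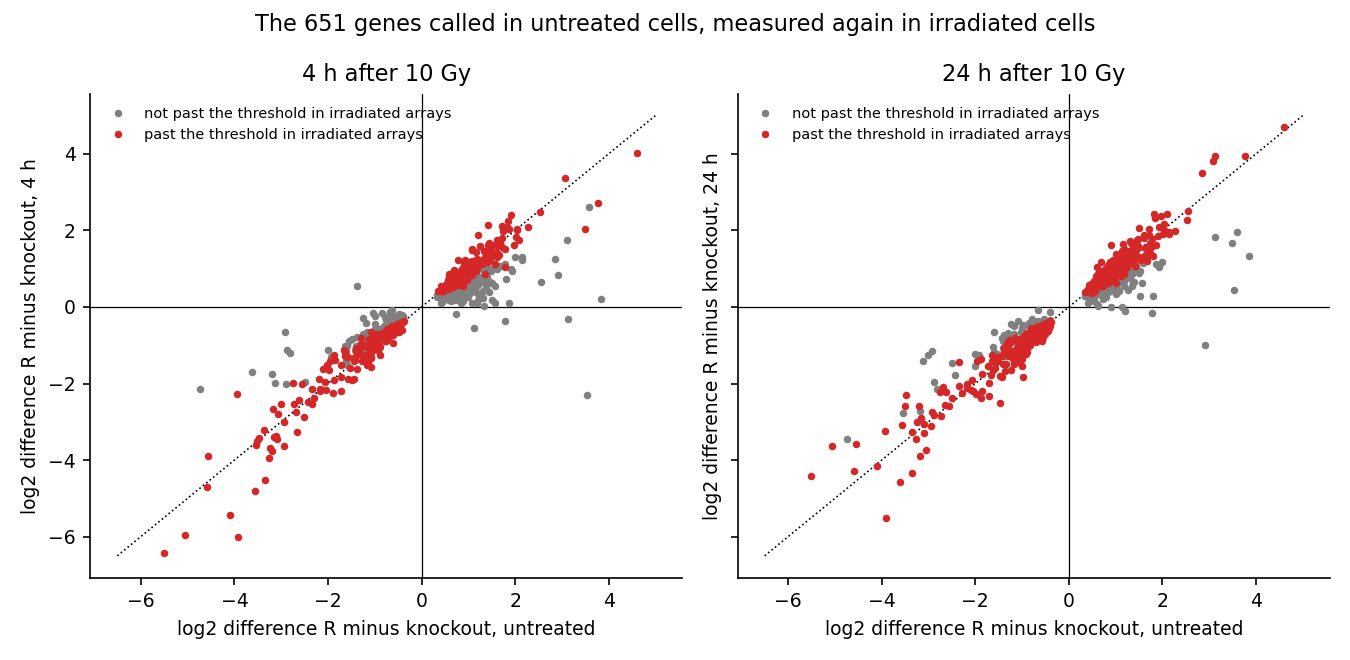
Each point is 1 of the 651 genes called in untreated cells, with the untreated log2 difference of R minus knockout on the horizontal axis and that of the irradiated arrays on the vertical axis, 4 h on the left and 24 h on the right; the dotted line marks equal differences. Coloured points, 380 and 471 genes, were called again.

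The differences were not spread evenly along the chromosomes. When the measurable genes of each chromosome were put in order and divided into 8 stretches of equal gene number, 21 of 160 stretches had a median difference beyond 0.25 in size, 11 higher and 10 lower in R. These stretches were chosen by their untreated values, so those are a description. All 21 had the same sign at 4 h and at 24 h, on other arrays. They held 12% of the measurable genes with a position, and 181 of the 646 called ones. Of the genes there 13.7% were called, against 4.79% elsewhere. In the raised stretches 102 genes were called higher and 6 lower, and in the lowered ones 6 higher and 67 lower.

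On chromosome 12 the first 3 stretches, 147 genes, had a median of 0.39 in untreated cells, 0.42 at 4 h and 0.33 at 24 h. The last 2, 97 genes from Ttc7b onwards, had medians of -0.51, -0.51 and -0.48, with 24 genes called lower and 2 higher. Relative to the mean of the 6 arrays, the median gene of those last 2 stretches lay at 0.17, 0.21 and 0.30 on the knockout arrays and at -0.34, -0.05 and -0.20 on the R arrays. Akt1 itself lies in the last of the 8. Against the wild type the same genes had a median of -0.89 in R and -0.37 in the knockout.

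Steps of this kind are described for 3 other chromosomes. The last 3 stretches of chromosome 11, 339 genes from Nme2 onwards, had medians of 0.40, 0.32 and 0.44, with 48 genes called higher and none lower, while the 567 genes before them had 0.08, 0.05 and 0.08. The last 4 stretches of chromosome 14, 183 genes from Zfhx2 onwards, had -0.40, -0.40 and -0.38, with 27 called lower and 2 higher, against 0.12, 0.13 and 0.10 for the 184 genes before. The first 2 stretches of chromosome 17, 136 genes, had 0.31, 0.27 and 0.28. The lines did not overlap in the array medians of any of these 3 stretches. Against the wild type, the genes of the chromosome 14 stretch had a median of -0.005 in R and 0.32 in the knockout. Those of chromosomes 11 and 17 had 0.33 and 0.56 in R and -0.07 and 0.27 in the knockout. Raised and lowered therefore describe R relative to the knockout only. All 8 stretches of chromosome 19 had a negative median, with a median of -0.29, -0.29 and -0.23 over 393 genes, 29 of them called lower and 6 higher. Chromosome 4 was shifted less and the other way, with 0.21, 0.19 and 0.20 over 675 genes (37 called higher and 6 lower) and no overlap of the lines. Chromosomes 5 and 3 had medians of 0.17, 0.18 and 0.19 and of 0.15, 0.14 and 0.11. Chromosome 1 had medians of 0.00, 0.01 and -0.02.

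Outside the 21 stretches 465 genes were called, 260 higher and 205 lower, and 248 of these differed by over 2-fold, against 53 within the stretches. The acute phase list kept 9 of 10 lower calls there, the protease list all 6, the contractile list all 4 and the interferon list 5 of 8. DNA content was not analysed here, and its part in the shifts was not tested.

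**Figure D4:**
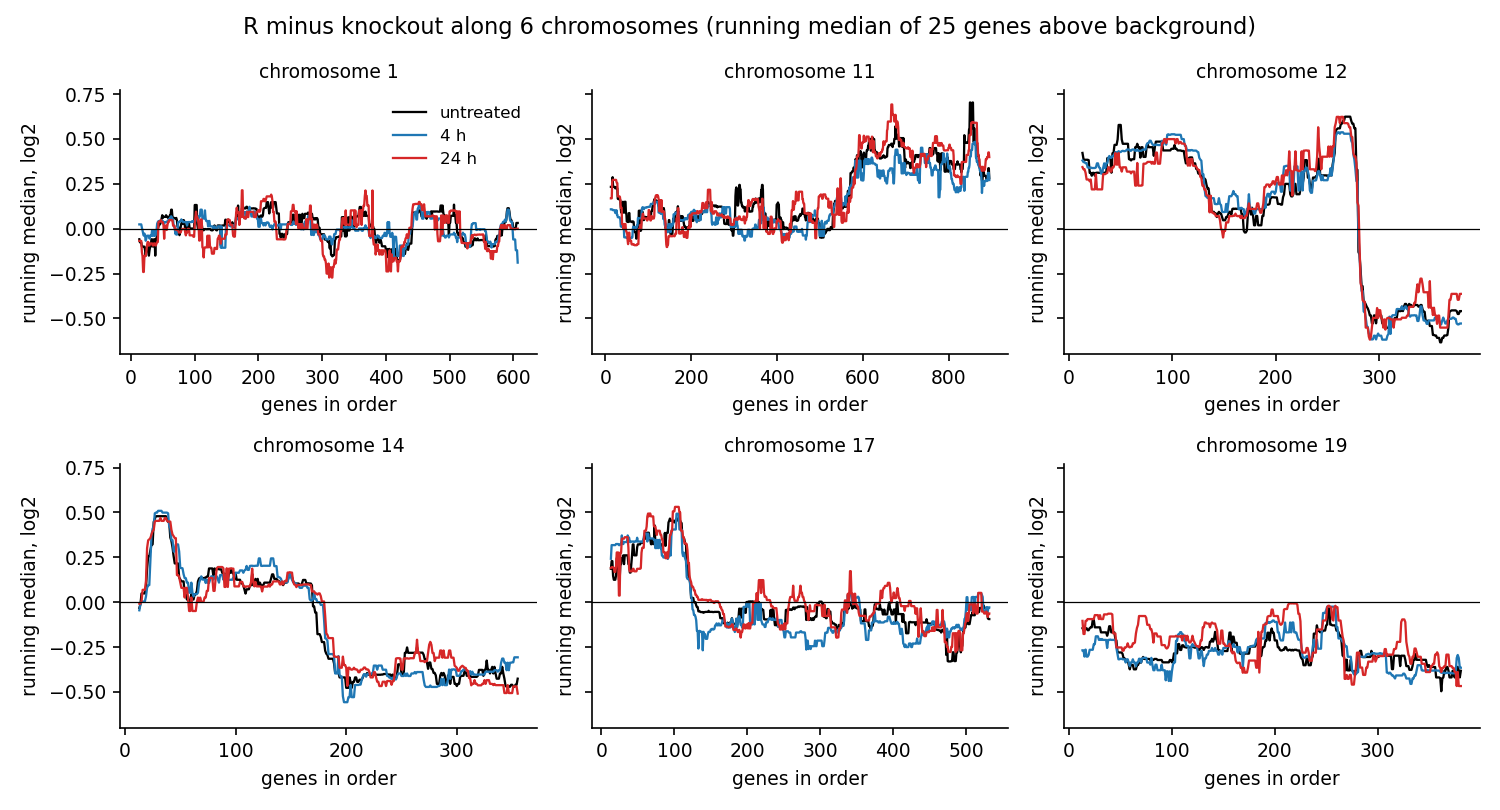
Running median over 25 measurable genes of the log2 difference of R minus knockout, plotted against the order of genes along chromosomes 1, 11, 12, 14, 17 and 19, for untreated arrays and for arrays 4 h and 24 h after irradiation. The 3 lines follow each other, with steps on chromosomes 11, 12, 14 and 17, a lower level along chromosome 19 and none on chromosome 1.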

How the data were processed

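RNA of 27 samples was hybridised to Affymetrix whole-genome mouse arrays. The deposited table holds linear intensity values; every array has a mean of 500.003 after trimming 2% at each end, which the authors' scaling gave. Per the submitters' processing notes RMA and GCRMA were used; their part in these values is not given in the sources used here. Intensities were taken to log2 with no offset. A gene was read by its brightest probe set (18193 genes; 34945 of 45101 probe sets carry 1 gene symbol). As all cells are female, the background level was the maximum of 243 readings of Eif2s3y, Kdm5d and Uty (9 probe sets). These genes were picked after seeing the values, and with Sry, Usp9y and Zfy2 the level is 69.9.

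Samples were grouped by title. The model was limma 3.58.1 (R 4.3.3) with 9 group means over all arrays, 18 residual and 1.39 prior degrees of freedom, two-sided, tested on simulated data. The comparison, lists and alternatives were chosen with earlier results of these data known. By rule the text could name Akt1, Akt2, Xist, up to 15 of the largest non-overlapping differences each way, and of each list all called members and those of smallest p, up to 5; it uses part of these. The chromosome stretches were noticed in these data. Gene order is from RefSeq (GRCm38.p6). Probe sets with several or no symbols were not used here. The alternatives were a replicate block, the 6 compared arrays alone, an intensity trend, quantile normalization, equal medians of arrays, averaged probe sets, an offset of 16, a model of measurable genes alone, omission of the 5 arrays that stand apart or of each compared array, and, added after seeing the data, the wider background.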

Additional observations from a re-analysis of the deposited data

How the results depend on the processing

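With the 6 compared arrays alone limma called 11 genes in untreated cells, 497 at 4 h and 20 at 24 h; with the fit on measurable genes only, where fewer genes were adjusted for, 990, 887 (4 h) and 1403 (24 h). Averaged probe sets gave 384 at 4 h, and omission of the 5 arrays that stand apart 1356 at 4 h. None of the 6 arrays compared at 4 h is among the 5. The differences were therefore the same, and only the estimate of the spread and its degrees of freedom changed. Leaving out single arrays gave 326 to 558 in untreated cells, 251 to 307 at 4 h and 398 to 712 at 24 h. Whether the replicate numbers pair the arrays was not settled. The correlation of deviations for same-numbered arrays of R and the knockout was 0.441, -0.486 and -0.491. Over 108 pairs of the series it ran from -0.645 to 0.718 (median 0.021). These deviations are from means of 3 arrays, and the arrays that stand apart are replicate 2 of the knockout and replicate 1 of R. That alone can give such signs, so the correlations cannot exclude pairing. The replicate block gave 618, 560 and 902 genes, of which 586 were shared with the 651; Cp, Ctsb, Ier2, Junb, Lcn2, Msmo1, Myl9, Runx1 and Skil lost their untreated calls with the block, and Apcdd1, Cp, Ctsb, Gaa, Msmo1, Myl9, Rsad2, Scd2 and Skil, among others, with quantile normalization. The higher background gave 632, 568 and 893. No named gene changed sign. Of the 140 called genes named, 131 passed with the block, 127 with quantile normalization, 130 with equal array medians, 88 with averaged probe sets and 105 without the 5 arrays. The number of arrays limits precision, and differences of genes near background are imprecise.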

Other observations

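The glycosidase genes Gusb (836 to 1330, 0.67 ± 0.11, adjusted p = 0.0013 by limma) and Gaa (1461 to 3192, 1.13 ± 0.31, adjusted p = 0.0486) were higher in R and the protease gene Ctsb lower (8222 to 5837, -0.49 ± 0.13, adjusted p = 0.041), 3 of 31 measured lysosome genes (10% of those above background, against 5.88% of all genes). Gusb was not called with the mean of its probe sets, nor was Ctsb, and Gaa not with equal array medians. Gaa and Ctsb lost their calls on leaving out any of 4 and any of 5 single arrays, and lie in shifted stretches of chromosomes 11 and 14. Brca1, which acts in the repair of broken DNA and lies in the raised stretch of chromosome 11, rose from 895 to 1271 (0.51 ± 0.11, adjusted p = 0.0104), a call lost with the mean of its probe sets, with equal array medians and on leaving out replicate 1 of the knockout. Xrcc5, which encodes the Ku80 subunit that binds broken DNA ends, read 580, 622 and 573 in the knockout and 1165, 1014 and 1015 in R (0.85 ± 0.16, adjusted p = 0.00562), and its call was lost only in the fit to the 6 compared arrays.

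Necdin (Ndn), an imprinted gene, read 322, 342 and 454 in the knockout and 890, 1210 and 1011 in R (1.48 ± 0.17, adjusted p = 3.94e-05). It was the only called gene of 29 measured imprinted genes, 5.88% of those above background and the same share as over all genes. Its difference at 24 h was 1.55. It was not called with the mean of its 8 probe sets, of which 5 were above background and all 5 called higher. The ribosomal protein paralog gene Rpl22l1 fell from 10130 to 6327 (-0.68 ± 0.09, adjusted p = 2.04e-04), with -0.68 at 4 h and -0.58 at 24 h.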
